A study of Mus musculus with 6 samples.

Results

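The cholesterol and fatty acid synthesis genes described here are 36 enzymes, regulators and carriers. They were listed by symbol from the known steps of the pathways. The rule used no measured value, but the list was chosen with earlier results of these data known. They comprise 8 genes of the mevalonate and isoprenoid steps, 11 of the late sterol steps, 6 regulators and carriers of sterol control, and 11 of fatty acid synthesis, elongation and desaturation. Symbols were matched to probes through the transcript accession that the scanner files give, and 35 of the 36 had a probe, out of 44702 genes or unnamed transcripts on the array. Acat2, the cytosolic thiolase of the first mevalonate step, matched no probe and has no value. All 35 were well above background on all 6 arrays, and all 35 were tested.

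The arrays compared NIH3T3 cells, an established line of mouse embryonic fibroblasts, in 2 groups of 3. The GGCT-OE group held cells that stably express GGCT (gamma-glutamylcyclotransferase, an enzyme of glutathione breakdown) after infection with the retroviral vector pCX4bsr. The empty group, so called in the titles, held cells that received the control vector. Both were grown in 2% fetal bovine serum, and total RNA was labelled with Cy3 and hybridised to Agilent 1-colour arrays. The titles number 3 experiments, and the design text calls them independent. The labels do not say if the infection was done anew for each experiment. The p-values therefore cover only the spread among the 3 arrays within each group. In fits with the experiment number as a block they cover the spread among the 3 pairs of arrays. The labels also do not name the species of the GGCT in the vector, or say whether the cells were cloned.

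Cells build cholesterol from acetyl-CoA through the mevalonate pathway, which makes isoprenoid units, and then through squalene, lanosterol and a chain of ring and side-chain modifications. The same acetyl-CoA feeds fatty acid synthesis, whose products are elongated and desaturated for membrane lipids. Both pathways are under the SREBP transcription factors, which are held in the endoplasmic reticulum by SCAP and INSIG proteins when sterols are plentiful and are carried to the Golgi and cleaved when sterols run short. Their targets usually bind SREBP together with NF-Y or Sp1 in the proximal promoter. Cultured fibroblasts also take up cholesterol from serum lipoproteins.

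Each array had 54.6% to 61.7% of its probes well above background and a 75th percentile of intensity of 380.0 to 471 units, with no saturated spot. Slide 1 (scan 1) carried replicate 1 of each group, and slide 2 (scan 2) carried the remaining replicates. Signals are given throughout as log2 intensity minus the 75th percentile of that array, so that a difference of 1 is a doubling, and levels of different genes are not compared. Ggct had -0.14, 0.20 and -0.16 in GGCT-OE cells, against -0.57, -0.72 and -0.66 in empty-vector cells. The difference was 0.62 ± 0.12 (SE, adjusted p = 0.0111, limma), and whether the probe reads the transcript of the vector was not tested. All 10 fibroblast markers were above background on all 6 arrays. In GGCT-OE cells 2 were higher and 4 lower (60% called, against 34.8% of all genes tested). Adipoq, Plin1, Fabp4, Cidec, Epcam, Cdh1, Tek, Kdr, Ptprc and Adgre1 were above background on no array. Lep, of the adipocyte list, and Cd3e, of the leukocyte list, were above background on 3 arrays of each group. Neither was called (differences -0.03 and -0.16, adjusted p = 0.89 and 0.336, limma). Enough signal for a test was found for 2 of 6 adipocyte, 1 of 5 epithelial, 2 of 4 endothelial and 2 of 4 leukocyte markers. Of the endothelial list, Cdh5 was above background on 3 GGCT-OE and 0 empty arrays. It was at least 2.18-fold higher in the main signals. After normexp background correction the difference was 0.41, a smaller change than this bound. Pecam1 had 0.43, or 0.17 with normexp, and passed in 9 of 21 alternatives. Of the other lists, Krt8 rose by 1.18 (0.57 with normexp), and Pparg, an adipocyte regulator, fell by 0.48. Cd68, of phagocytes, differed by -0.27 and passed in 7 of 21 alternatives. The part of these markers in the results below was not tested. In bulk RNA a smaller number of cells of a type and less RNA per cell cannot be told apart.

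The members moved in both directions in GGCT-OE cells, as did the genes tested over the whole array. Of the 35 measured members, 9 fell, 5 rose and 21 did not pass a Benjamini-Hochberg adjusted p of 0.05 over all 23774 genes tested (limma, 2-sided, GGCT-OE minus empty). The members that fell were Hmgcs1, Idi1, Fdft1, Sqle, Ebp, Sc5d, Srebf2, Acaca and Elovl1, and those that rose were Pmvk, Lss, Tm7sf2, Nsdhl and Fads2. The called share was 40% of the members, against 34.8% of all genes tested. By direction, 25.7% of the members fell, against 17.3% of all genes, and 14.3% rose, against 17.5% of all genes. The median difference of the 35 members was -0.16, against 0.02 for all genes tested. The GGCT-OE and empty arrays did not overlap for 23 members (65.7%), against 49.3% of all genes. With 3 arrays a group, an exact permutation test of a single gene cannot go below p = 0.1, so the calls rest on the variance that limma shares across genes, and precision is limited by how few arrays there are.

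**Figure D1:**
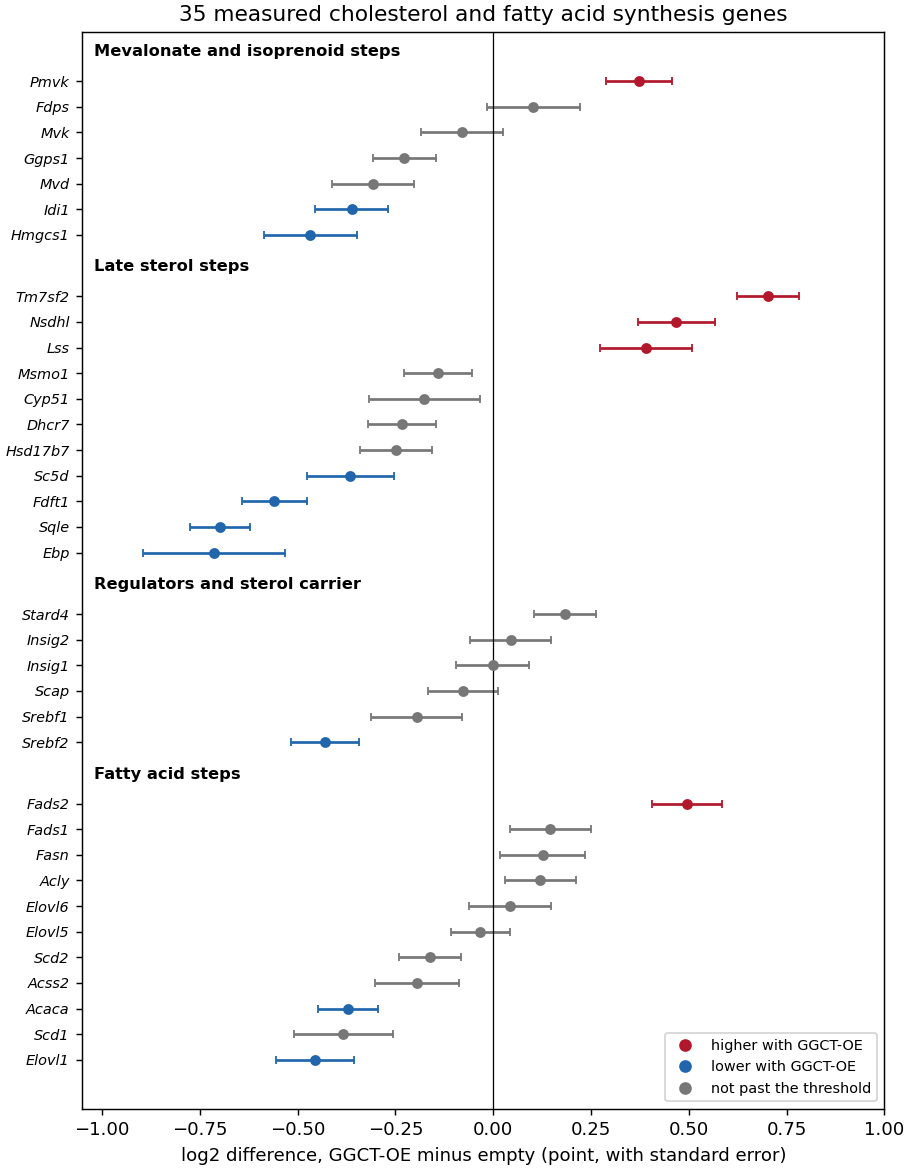
Difference of each of the 35 measured members on the log2 scale (GGCT-OE minus empty, horizontal axis), ordered by difference within the 4 steps; points are means and bars are standard errors from limma. The late sterol steps span -0.71 to 0.70, while 8 of the 11 fatty acid genes did not pass the threshold.

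The same-numbered arrays of the groups deviated together from their group means, and with the experiment number as a block 5 members rose and 14 fell. That was 54.3% of the members, against 53.4% of all genes tested in the same way. The 5 members that passed with the block and not without it were Mvd (adjusted p = 0.0253, limma with the block), Ggps1 (0.0271), Dhcr7 (0.0237), Srebf1 (0.0394) and Scd1 (0.00707), and all 5 were lower in GGCT-OE cells. Scd1 also passed in several runs without the block, 8 of 21 alternatives in all. The 14 members called without the block also passed with it.

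Of the mevalonate and isoprenoid steps, 1 of 7 measured genes rose, 2 fell and 4 did not pass, a called share of 42.9% against 34.8% of all genes. The list had a median difference of -0.23. Hmgcs1, the cytosolic HMG-CoA synthase that commits acetyl units to the pathway, had 6.38, 6.17 and 6.21 in GGCT-OE cells, against 6.89, 6.55 and 6.71 in empty-vector cells. Every GGCT-OE array lay below every empty array, and the gene was 1.38-fold lower (difference -0.47 ± 0.12, SE, adjusted p = 0.0257, limma). Idi1, which isomerises the isoprenoid unit IPP to DMAPP, had 5.60, 5.70 and 5.48 in GGCT-OE cells, against 6.04, 5.91 and 5.92 in empty-vector cells. It was 1.29-fold lower without overlap (difference -0.36 ± 0.09, adjusted p = 0.0286, limma). Pmvk, the phosphomevalonate kinase that lies between those 2 enzymes in the pathway, went the other way. Its values were 5.27, 5.33 and 5.15 in GGCT-OE cells, against 4.92, 4.84 and 4.87 in empty-vector cells, and all GGCT-OE arrays lay above all empty arrays (difference 0.37 ± 0.08, adjusted p = 0.0175, limma).

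The other 4 measured genes of these steps did not pass. Mvk, the kinase before it, differed by -0.08 (adjusted p = 0.606, limma), with overlapping groups. Mvd, the decarboxylase after it, had 3.20, 3.13 and 3.08 in GGCT-OE cells, against 3.62, 3.31 and 3.41 in empty-vector cells, which did not overlap (difference -0.31 ± 0.11, adjusted p = 0.0679, limma without the block). Fdps, which joins isoprenoid units to farnesyl diphosphate, differed by 0.10 (adjusted p = 0.558, limma), so the data gave no call at the branch point from which sterols and prenyl groups leave. Ggps1, which extends farnesyl to geranylgeranyl diphosphate for protein prenylation, differed by -0.23 ± 0.08 without overlap (adjusted p = 0.0756, limma). The 5 probes of Ggps1 gave differences between -0.38 and -0.01, and none passed.

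Of the 11 late sterol genes, 3 rose, 4 fell and 4 did not pass, a called share of 63.6% against 34.8% of all genes. Full separation of GGCT-OE from empty arrays was seen in 10 of these 11 (90.9%), against 49.3% of all genes tested. The members called were spread along the pathway in both directions. The first 2 enzymes fell together. Fdft1 (squalene synthase), the first enzyme committed to sterols, had 5.48, 5.56 and 5.42 in GGCT-OE cells, against 5.98, 6.06 and 6.09 in empty-vector cells (difference -0.56 ± 0.08, SE, adjusted p = 0.00396, limma). Sqle (squalene epoxidase), the oxygen-requiring step that follows and a known control point of sterol flux, had 6.15, 6.21 and 6.16 in GGCT-OE cells, against 6.89, 6.81 and 6.92 in empty-vector cells. Sqle was 1.62-fold lower (difference -0.70 ± 0.08, adjusted p = 0.00139, limma), and the gap between the groups was several times the spread within each.

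The next enzyme, Lss (lanosterol synthase), closes the sterol rings and was higher. Its values were 4.84, 5.21 and 4.97 in GGCT-OE cells, against 4.52, 4.65 and 4.68 in empty-vector cells, and experiment 2 gave the highest GGCT-OE value (difference 0.39 ± 0.12, adjusted p = 0.0462, limma). Tm7sf2, a C14 sterol reductase of the endoplasmic reticulum, had 4.86, 4.95 and 4.92 in GGCT-OE cells, against 4.16, 4.18 and 4.29 in empty-vector cells. It was 1.63-fold higher without overlap (difference 0.70 ± 0.08, adjusted p = 0.00158, limma), the largest increase among the members. Nsdhl, a dehydrogenase in removal of the C4 methyl groups, had 3.54, 3.83 and 3.71 in GGCT-OE cells, against 3.25, 3.20 and 3.22 in empty-vector cells (difference 0.47 ± 0.10, adjusted p = 0.014, limma). The empty arrays of Nsdhl lay close together and the GGCT-OE arrays were spread above them.

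Past C4 demethylation the called genes were lower again. Ebp, the sterol isomerase that shifts the ring double bond, had 4.05, 3.80 and 3.56 in GGCT-OE cells, against 4.82, 4.33 and 4.41 in empty-vector cells. It was 1.64-fold lower (difference -0.71 ± 0.18, adjusted p = 0.0268, limma), the lowest difference among the members, close to that of Sqle, and experiment 1 was the highest in both groups. Sc5d, the C5 desaturase that acts next, had 3.26, 3.21 and 3.02 in GGCT-OE cells, against 3.68, 3.44 and 3.46 in empty-vector cells, without overlap (difference -0.36 ± 0.11, adjusted p = 0.0472, limma). Dhcr7, which reduces 7-dehydrocholesterol, differed by -0.23 ± 0.09 without overlap but did not pass without the block (adjusted p = 0.0844, limma). Neither did Hsd17b7, the ketosteroid reductase of C4 demethylation (-0.25, adjusted p = 0.0863), Msmo1, its methyl oxidase (-0.14, 0.267), or Cyp51, the lanosterol demethylase (-0.18, 0.392). All 8 late sterol genes outside the 3 that rose had negative differences.

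**Figure D2:**
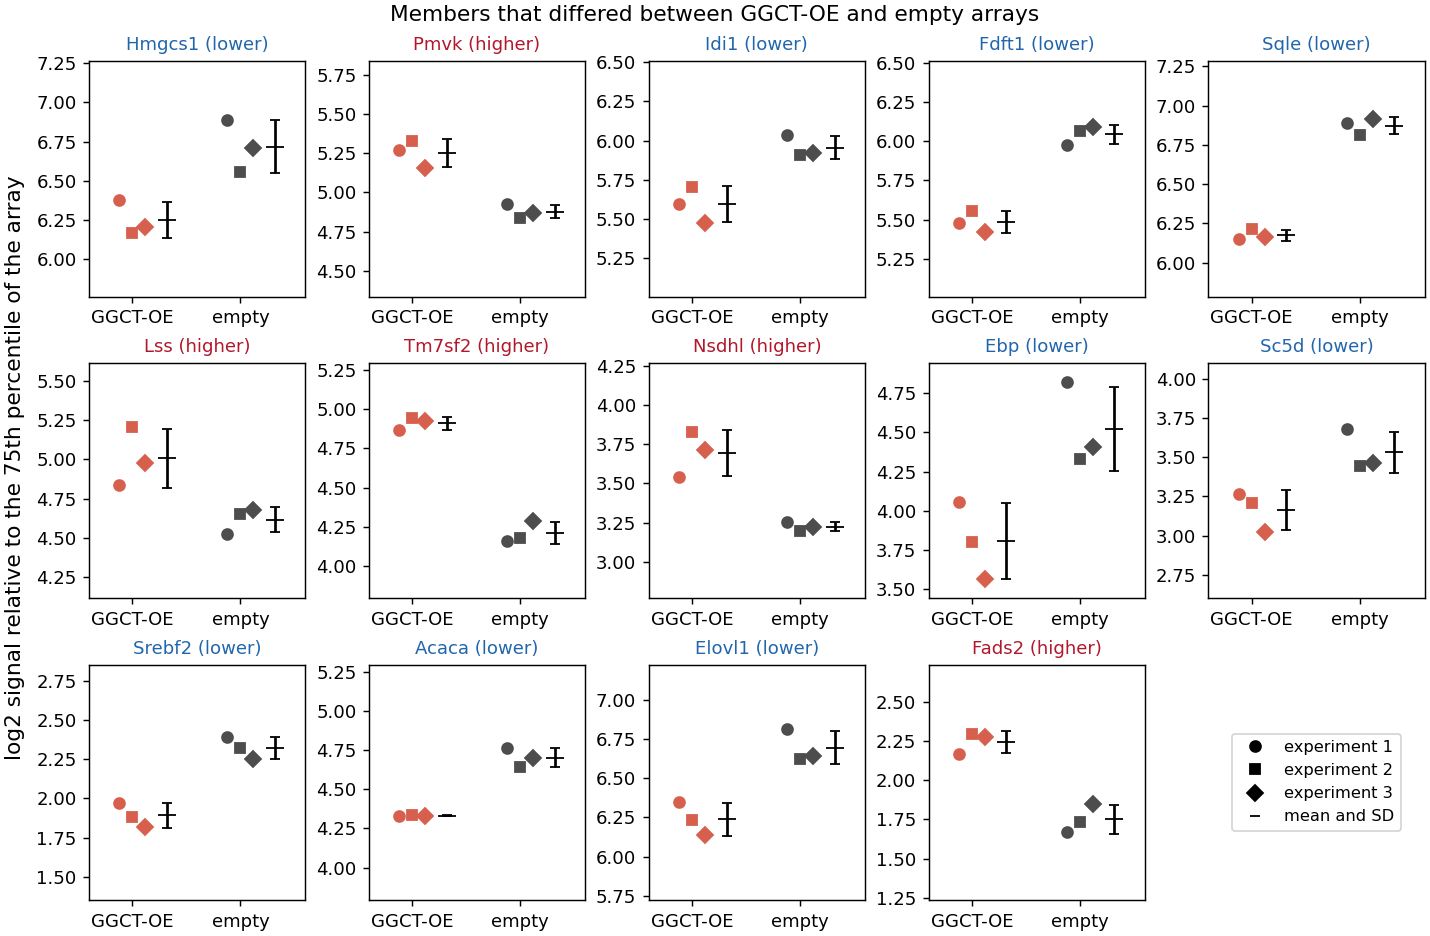
Signal of the 14 called members on each array, as log2 intensity relative to the 75th percentile of that array (vertical axes, all of equal span), for GGCT-OE (left) and empty (right) arrays; symbols mark the experiment, and the dash with its bar is the mean and SD of 3 arrays. The groups do not overlap in any of the 14 panels, which show only genes selected by their calls. Of all genes tested, 49.3% do not overlap. Sqle, Tm7sf2 and Ebp have the widest gaps between means.

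Of the 6 regulators and carriers, 1 fell and 5 did not pass, a share of 16.7% lower against 17.3% of all genes. Srebf2, which encodes SREBP2, the factor that mainly drives sterol genes, had 1.97, 1.88 and 1.82 in GGCT-OE cells, against 2.39, 2.32 and 2.25 in empty-vector cells. The groups did not overlap (difference -0.43 ± 0.09, SE, adjusted p = 0.0116, limma). Srebf1, which encodes the SREBP1 forms that mainly drive fatty acid genes, had 3.43, 3.15 and 3.19 in GGCT-OE cells, against 3.59, 3.33 and 3.44 in empty-vector cells, which overlapped (difference -0.20 ± 0.12, adjusted p = 0.249, limma). Insig1, a feedback target of SREBP that retains the SCAP complex, had 1.02, 1.25 and 1.22 in GGCT-OE cells, against 1.15, 1.15 and 1.19 in empty-vector cells, and differed by -0.00 ± 0.09 (adjusted p = 0.992, limma). Insig2 (0.04, adjusted p = 0.78), the paralog of Insig1, and Scap (-0.08, 0.557), the escort of SREBP, also had overlapping groups. Stard4, a soluble sterol carrier, differed by 0.18 without overlap (adjusted p = 0.124). A second, dimmer Stard4 probe gave 0.38 with an adjusted p over all probes of 0.0501.

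Of the 11 fatty acid genes, 1 rose, 2 fell and 8 did not pass, a called share of 27.3% against 34.8% of all genes. Acaca, the acetyl-CoA carboxylase that makes malonyl-CoA, had 4.33, 4.33 and 4.33 in GGCT-OE cells, against 4.76, 4.64 and 4.70 in empty-vector cells. The 3 GGCT-OE values were nearly equal and lay below all empty values (difference -0.37 ± 0.08, SE, adjusted p = 0.0128, limma). Elovl1, an elongase of very long saturated chains, had 6.35, 6.23 and 6.13 in GGCT-OE cells, against 6.81, 6.62 and 6.64 in empty-vector cells (difference -0.45 ± 0.10, adjusted p = 0.0158, limma). Fads2, the delta-6 desaturase of polyunsaturated fatty acids, went the other way, with 2.16, 2.29 and 2.28 in GGCT-OE cells, against 1.67, 1.73 and 1.85 in empty-vector cells. It was 1.41-fold higher without overlap (difference 0.50 ± 0.09, adjusted p = 0.00793, limma).

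The remaining fatty acid genes gave no call. Fasn, the synthase itself, had 6.90, 7.26 and 7.06 in GGCT-OE cells, against 6.94, 6.94 and 6.97 in empty-vector cells, which overlapped (difference 0.13 ± 0.11, adjusted p = 0.427, limma). Acly, which makes cytosolic acetyl-CoA from citrate, differed by 0.12, and Acss2, which makes it from acetate, by -0.20. Scd1, a delta-9 desaturase, had 3.10, 2.84 and 2.89 in GGCT-OE cells, against 3.53, 3.18 and 3.27 in empty-vector cells, without overlap (difference -0.38 ± 0.13, adjusted p = 0.0613, limma without the block). Its paralog Scd2 differed by -0.16 (adjusted p = 0.165), also without overlap, and cross-hybridisation between probes of paralogs was not tested. The elongases Elovl5 (-0.03) and Elovl6 (0.04) and the delta-5 desaturase Fads1 (0.15) had overlapping groups. No test compared the 4 steps with each other. Their medians were -0.23 for the mevalonate genes, -0.23 for the late sterol genes, -0.04 for the regulators and -0.03 for the fatty acid genes.

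Several genes have more than 1 probe on the array. Of the 14 called members, 8 had several probes, and in all 8 every probe had the same direction. Every probe passed the threshold over all probes in 6 of the 8. The second probes of Fdft1 (-0.57), Tm7sf2 (0.68), Ebp (-0.68), Elovl1 (-0.45), Fads2 (0.49) and Pmvk (0.40) gave nearly the value of the brightest probe. The exceptions were Lss, of which 1 other probe gave 0.42 and another 0.06 (adjusted p over all probes 0.806), and Acaca, whose other 3 probes gave -0.29, -0.17 and -0.35 and did not pass. The calls of Hmgcs1, Idi1, Sqle, Nsdhl, Sc5d and Srebf2 rest on a single probe.

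All 14 called members had the same direction on both slides. On slide 1, with 1 array a group, their differences lay between -0.77 for Ebp and 0.70 for Tm7sf2, and on slide 2, with 2 arrays a group, between -0.69 and 0.70 for the same genes. Nsdhl differed most between slides among them, with 0.29 on slide 1 and 0.56 on slide 2. Among the 35 members 4 changed sign between slides. They were Insig1, Insig2, Fasn and Elovl6, none of which was called.

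**Figure D3:**
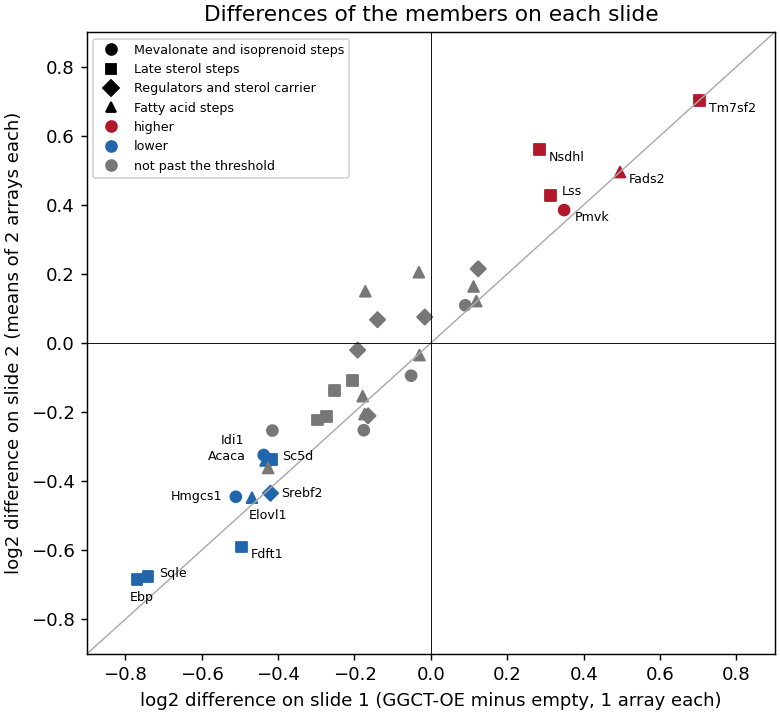
Difference of each member (log2, GGCT-OE minus empty) on slide 1 (horizontal axis, 1 array a group) against slide 2 (vertical axis, means of 2 arrays a group), with the 14 called members named and the line of equal values. The called members lie in the lower left and upper right quadrants, which follows from the lack of overlap between their groups.

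The calls differed in how far they rested on single arrays. Fdft1, Sqle, Tm7sf2, Srebf2 and Fads2 passed with each of the 6 arrays left out in turn, with Srebf2 reaching an adjusted p of 0.0486. Elovl1 did not pass without GGCT-OE replicate 3 (adjusted p = 0.0593, limma), and Acaca did not pass without replicate 3 of either group (adjusted p up to 0.0577). Nsdhl lost its call without GGCT-OE replicate 3 or replicates 2 or 3 of the empty group (up to 0.0556), and Pmvk without replicate 2 of either group or empty replicate 3 (up to 0.0709). Hmgcs1 and Ebp did not pass without GGCT-OE replicate 2, empty replicate 1 or replicate 3 of either group (up to 0.0851 and 0.0819). Idi1 passed only without GGCT-OE replicate 2 (otherwise up to 0.0953), Lss only without GGCT-OE replicate 1 (up to 0.115), and Sc5d in none of these runs (up to 0.141). With both arrays of replicate 3 left out, limma called 0 members and 8.08% of all genes, while 4 members were higher and 5 lower at an unadjusted p under 0.05. Quantile normalization ended the call of Sc5d, a median shift that of Lss, and slide 2 alone those of Idi1 and Sc5d. Without a filter on dim probes only Fdft1, Sqle, Tm7sf2 and Fads2 among the members passed. None of the 14 changed direction in any of the 21 alternatives run.

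Promoters of 29 of the 36 genes were in the RefSeq table of assembly GRCm38.p6, each from 250 bases before to 50 after an annotated start, with 38 windows in all. They are described because SREBP targets are known for short motifs near the start, and 6 are printed: those of Hmgcs1, Srebf2 and Ebp, which fell, of Tm7sf2 and Nsdhl, which rose, and of Insig1, whose difference was near 0. The windows are chr13:119690101-119690400 on the plus strand for Hmgcs1, chr15:82147019-82147318 on the plus strand for Srebf2, chrX:8193463-8193762 on the minus strand for Ebp, chr19:6067801-6068100 on the minus strand for Tm7sf2, chrX:72918271-72918570 on the plus strand for Nsdhl and chr5:28071162-28071461 on the plus strand for Insig1. Each is written 5′ to 3′ along its gene, and capitals mark matches to the sterol regulatory element core TCACNCCAC and to the NF-Y box CCAAT on either strand.
Hmgcs1: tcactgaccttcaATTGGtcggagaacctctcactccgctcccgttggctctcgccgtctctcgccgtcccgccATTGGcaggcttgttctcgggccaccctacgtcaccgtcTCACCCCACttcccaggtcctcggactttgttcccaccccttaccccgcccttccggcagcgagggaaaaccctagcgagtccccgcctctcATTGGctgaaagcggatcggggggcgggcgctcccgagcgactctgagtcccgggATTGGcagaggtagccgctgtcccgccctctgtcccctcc
Srebf2: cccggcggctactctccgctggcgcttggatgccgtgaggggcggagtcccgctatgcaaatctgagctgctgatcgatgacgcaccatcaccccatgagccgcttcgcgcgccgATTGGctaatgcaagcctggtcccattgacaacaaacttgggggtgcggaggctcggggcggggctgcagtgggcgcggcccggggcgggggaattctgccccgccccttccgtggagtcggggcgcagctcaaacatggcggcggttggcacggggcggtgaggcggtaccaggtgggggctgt
Ebp: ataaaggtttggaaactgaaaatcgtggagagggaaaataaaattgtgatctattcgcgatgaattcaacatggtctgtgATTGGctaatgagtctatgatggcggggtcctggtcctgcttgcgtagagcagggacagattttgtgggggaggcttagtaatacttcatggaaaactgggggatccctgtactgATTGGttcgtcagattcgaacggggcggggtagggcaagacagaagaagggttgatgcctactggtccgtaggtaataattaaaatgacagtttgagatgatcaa
Tm7sf2: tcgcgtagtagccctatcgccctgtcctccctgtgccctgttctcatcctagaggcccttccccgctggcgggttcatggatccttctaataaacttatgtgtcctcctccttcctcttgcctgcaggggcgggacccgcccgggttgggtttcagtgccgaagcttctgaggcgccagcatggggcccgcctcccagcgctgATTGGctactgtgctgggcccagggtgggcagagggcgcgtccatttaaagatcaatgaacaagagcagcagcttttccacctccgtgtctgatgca
Nsdhl: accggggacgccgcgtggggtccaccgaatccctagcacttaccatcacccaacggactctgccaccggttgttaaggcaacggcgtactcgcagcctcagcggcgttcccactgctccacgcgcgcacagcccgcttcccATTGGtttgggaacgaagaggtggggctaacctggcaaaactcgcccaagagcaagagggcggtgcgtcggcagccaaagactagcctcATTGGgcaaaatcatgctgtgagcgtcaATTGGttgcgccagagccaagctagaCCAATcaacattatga
Insig1: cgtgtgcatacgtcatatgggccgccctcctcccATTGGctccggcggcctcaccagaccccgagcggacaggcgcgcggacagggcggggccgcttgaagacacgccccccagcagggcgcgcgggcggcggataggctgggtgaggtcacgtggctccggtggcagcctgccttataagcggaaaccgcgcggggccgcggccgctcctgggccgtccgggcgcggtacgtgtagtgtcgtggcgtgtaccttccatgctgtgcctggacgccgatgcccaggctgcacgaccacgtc

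The sterol regulatory element core was in 1 of the 29 genes' windows, that of Hmgcs1, where it began at position -137 from the start, and in 1.44% of all 27025 genes in the table. The NF-Y box was in 24 of 29 (82.8%), against 41.1% of all genes, and in 9 of 9 late sterol genes with a window. It occurred 4 times in each of the windows of Hmgcs1 and Nsdhl, 2 times in that of Ebp and 1 time in those of Srebf2, Tm7sf2 and Insig1. The GC box GGGCGG, a site of Sp1, was in 23 of 29 (79.3%), against 38.2% of all genes. The E-box CACGTG, which SREBP1 can also bind, was in 6 of 29 (20.7%), against 8.09% of all genes. All of these shares are over the 27025 genes of the table, tested on the arrays or not. Shares over the tested genes alone were not taken, so no excess particular to the members can be read from them. Both strands were searched, and different motifs overlapped 1 time in the members' windows. The NF-Y box was in 6 of the 7 members that fell and in 4 of the 5 that rose and have a window, and the GC box gave the same 6 of 7 and 4 of 5. In the 100 bases before the start alone, the NF-Y box was in 5 of 7 and 3 of 5 and the GC box in 5 of 7 and 1 of 5, against 21.6% and 27.3% of all genes. A match is a string of letters and not a site of binding, and the absence of a match says only that these letters are not in the window.

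The members were also set beside the genes next to them on their chromosomes, a description added after the data were seen. For each member the median difference was taken over up to 20 tested genes on each side in the order of the RefSeq gene table. Over all 14057 tested genes with a symbol these neighbour medians had a 5th percentile of -0.34, a median of 0.00 and a 95th percentile of 0.24. Those of 5 members lay below the lower of these percentiles and that of 1 member above the upper. Ebp, on the X chromosome, differed by -0.71, and its 40 neighbours had a median of -0.62, with 25 lower and 0 higher. Hmgcs1 differed by -0.47 and its 26 neighbours by -0.54, with 17 lower and 1 higher. Hmgcs1, Idi1 (neighbours -0.39) and Ggps1 (-0.40) all lie on chromosome 13, where the median of 548 tested genes was -0.28. Sqle (-0.42) and Srebf2 (-0.32) lie on chromosome 15, where the median of 587 tested genes was -0.27. Nsdhl, also on the X chromosome but elsewhere, differed by 0.47 with a neighbour median of 0.28.

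Of the other called members, 4 had neighbour medians within 0.04 of 0. These were -0.02 for Sc5d, 0.00 for Acaca, 0.04 for Lss and 0.02 for Pmvk, beside differences of -0.36, -0.37, 0.39 and 0.37. With up to 50 genes on each side they were -0.18 for Sc5d, -0.02 for Acaca, 0.13 for Lss and 0.04 for Pmvk, and the median of chromosome 9, which carries Sc5d, was -0.16. Neighbour medians were -0.28 for Fdft1, -0.18 for Elovl1, 0.16 for Tm7sf2 and 0.15 for Fads2, each smaller in size than the difference of the gene itself. The sign of the neighbour median was negative for 8 of the 9 members that fell and positive for 5 of the 5 that rose. The same share over all called genes was not taken. Medians of whole chromosomes also differed, from -0.28 on chromosome 13 to 0.21 on chromosome 10 among those that carry members. Across the 35 members the difference and the neighbour median had Pearson r = 0.707 and Spearman rho = 0.689, and across all 14057 genes r = 0.221 and rho = 0.320. These are descriptions across genes on the same 6 arrays, and neighbouring members such as Fads1 and Fads2 share neighbours. Whether gains or losses of chromosome segments differ between the cell populations was not tested.

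**Figure D4:**
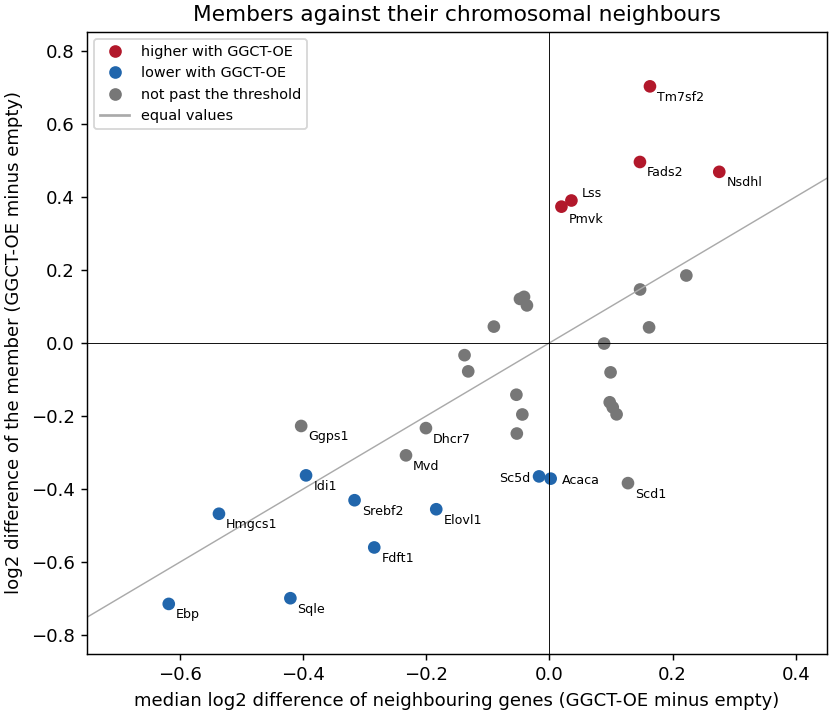
Difference of each member (vertical axis, log2, GGCT-OE minus empty) against the median difference of up to 40 neighbouring tested genes (horizontal axis, same scale), with the line of equal values. Ebp, Hmgcs1 and Idi1 lie near the line, while Sc5d, Acaca, Lss and Pmvk lie farther from it, with medians of -0.02, 0.00, 0.04 and 0.02 for up to 20 genes on each side.

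Genes around the synthesis pathways were described from 4 further lists. Of 15 tested genes of SREBP processing and turnover, 1 rose and 5 fell (40% called, against 34.8% of all genes; median -0.22). With the block 2 rose and 8 fell (66.7%, against 53.4% of all genes). Pgrmc1, a haem-binding membrane protein that can bind INSIG1 and SCAP, had 3.03, 3.02 and 2.94 in GGCT-OE cells, against 3.93, 3.92 and 3.97 in empty-vector cells (difference -0.94 ± 0.08, SE, adjusted p = 0.000475, limma). Mbtps1, the first protease that cleaves SREBP in the Golgi, fell by 0.45 (adjusted p = 0.00567), and Sec24a, a COPII coat protein, fell by 0.37 (0.0156). Fbxw7, the ubiquitin ligase subunit that marks nuclear SREBP for degradation, rose by 0.54 (0.019).

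Of 16 tested genes of sterol uptake, export and storage, 3 rose and 7 fell (62.5% called, against 34.8% of all genes; median -0.14). With the block 3 rose and 7 fell (62.5%, against 53.4% of all genes). Abca1, the exporter of cholesterol to apolipoprotein A-I and a target of the LXR receptors, had -4.21, -4.52 and -4.23 in GGCT-OE cells, against -1.80, -1.85 and -1.72 in empty-vector cells (difference -2.53 ± 0.11, adjusted p = 6.10e-05, limma). With normexp background correction its difference was -1.17. Mylip (IDOL), an LXR target that degrades lipoprotein receptors, had 1.84, 1.76 and 1.91 in GGCT-OE cells, against 3.03, 2.99 and 3.05 in empty-vector cells (difference -1.19 ± 0.08, adjusted p = 0.00026, limma). Vldlr, one of those receptors, was well above background on 0 GGCT-OE and 3 empty arrays. In the main signals Vldlr was at least 10.8-fold lower (adjusted p = 1.42e-05, limma). After normexp the difference was -1.78, a smaller change than this bound. Lipa, the lysosomal lipase that frees cholesterol from lipoprotein esters, fell by 0.76 (adjusted p = 0.00105). The LXR gene Nr1h3 was above background on 2 GGCT-OE and 0 empty arrays and was not tested.

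Of 14 genes that use isoprenoids, 6 rose and 5 fell (78.6% called, against 34.8% of all genes; median 0.09). With the block 6 rose and 5 fell (78.6%, against 53.4% of all genes). Fntb, the beta subunit of protein farnesyltransferase, had -0.46, -0.24 and -0.40 in GGCT-OE cells, against -1.47, -1.33 and -1.13 in empty-vector cells (difference 0.94 ± 0.12, adjusted p = 0.00217, limma). Pdss2, of the ubiquinone side chain, rose by 0.39 (adjusted p = 0.0129) and Nus1, of dolichol synthesis, by 0.42 (0.0141), while Zmpste24, the protease that processes prenylated prelamin A, fell by 0.53 (0.019).

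Of 24 tested genes of fatty acid supply, activation and elongation, 1 rose and 6 fell (29.2% called, against 34.8% of all genes; median -0.13). With the block 1 rose and 10 fell (45.8%, against 53.4% of all genes). Mid1ip1 (MIG12), a protein that promotes polymerisation of acetyl-CoA carboxylase, the enzyme that Acaca encodes, had -2.68, -1.98 and -2.74 in GGCT-OE cells, against 3.01, 2.92 and 2.95 in empty-vector cells (difference -5.43 ± 0.21, adjusted p = 4.22e-05, limma). All 6 arrays were above background for it, and with normexp background correction the difference was -4.62. The acyl-CoA synthetases Acsl1 (-0.68, adjusted p = 0.00144) and Acsl6 (-1.60, 0.00107) fell, and Hacd4, a dehydratase of elongation, was above background on 0 GGCT-OE and 3 empty arrays (at least 1.92-fold lower, 0.000696). With normexp the Acsl6 difference was -0.86 and that of Hacd4 -0.41, a smaller change than its bound.

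**Figure D5:**
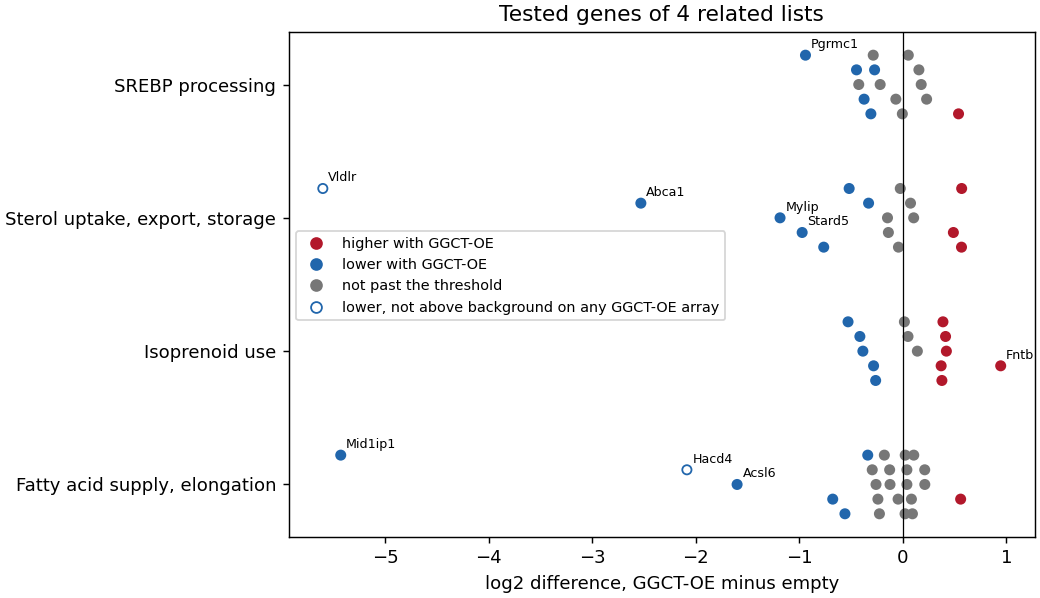
Difference (log2, GGCT-OE minus empty, horizontal axis) of each tested gene of the 4 related lists; each point is a gene, open points are genes not above background on any GGCT-OE array, and names mark differences of large size. Vldlr, Abca1 and Mid1ip1 lie far to the left of the other genes.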

How the data were processed

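The members and lists were chosen with earlier results of these data known. Per the file headers, the authors' spot intensities come from Agilent Feature Extraction, version 12.1.0.3, which subtracted background and detrended each array. The deposited log2 table holds the same values, each column differing from its array's log2 intensity by a constant (correlation 1.000 over 18096 probes brighter than 200, column medians -3.88 to -3.70), with direction and scale as in the scanner files. The 3671 control spots of 62976 and 578 outlier-flagged spots were left out, spots of a probe were averaged, and each array's 75th percentile was subtracted on the log2 scale. Accessions matched to RefSeq (GRCm38.p6) named 34504 of 56570 probes. The array design names an older build, so the gene table served for names, chromosomes and neighbours only.

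The brightest probe stood for its gene, and genes detected (well above background) in every array of either group were tested, 23774 in all. Groups came from the sample titles. The test of GGCT-OE minus empty was limma's (version 3.58.1, R 4.3.3; lmFit, then eBayes), with no block. Same-numbered arrays deviated together (correlations across genes of 0.731, 0.453 and 0.358), so the titles' numbers were taken to pair the samples, although arrays of different numbers on slide 2 also correlated (0.299 and 0.342). A bound ("at least N-fold") sets the bright group's mean against, per dim array, the probe's value or, if higher, the lowest signal of any detected probe. It holds for the main signals only, and normexp gave smaller changes for Cdh5, Vldlr and Hacd4. Named related genes are up to 4 of each list with the smallest adjusted p, and Nr1h3 was named after its values were seen. The fit was run on simulated data with known differences. The simulated noise was independent between arrays, so the effect of a shift shared by same-numbered arrays was not tested. Alternatives were other normalizations, background correction by normexp (offset 50) on median signals, filters, probe rules, variance models, array weights, blocks and left-out arrays.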

Additional observations from a re-analysis of the deposited data

How the results depend on the processing

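Across the 21 alternatives, no called difference of a member changed direction. The 9 lower calls became 2 with no filter on dim probes, where 44702 genes shared the correction, 16 with array weights, 14 with the replicate number as a block and 15 with the slide as a block. The 5 higher calls became 2 with no filter. Over all genes, 8274 calls became 4711 with no filter, 12826 with array weights, 12685 with the replicate block and 12753 with the slide block. Leaving out arrays or whole replicates gave 0 to 8 lower and 0 to 5 higher calls, the lowest without replicate 3 and next without replicate 2 (1 lower and 1 higher). The median of the fatty acid genes was -0.03, and -0.16 when probes of a gene were averaged, where a dim second probe of Elovl5 enters. The cause of the other changes was not tested. Slide 2 alone is the run without replicate 1 and called 8 lower and 5 higher. The paired analysis changed no call of a member besides the 5 given in the report. Signals near background limit Abca1, Acsl6 and the bounds, while all 35 members were above background on all 6 arrays. Neighbour medians over 10 or 50 genes on each side, or on either slide, were chosen after seeing the data. With 50 genes on each side that of Nsdhl was 0.05 and that of Ebp -0.65.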
